A study of Homo sapiens with 12 samples.

Results

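The 66 clustered histone genes described here were taken from 18239 genes measured on 12 arrays. They were all genes whose current symbol names a histone of the H1, H2AC, H2BC, H3C or H4C series (mostly formerly HIST1H, HIST2H or HIST3H). Only genes with at least 1 probe set naming that gene alone were taken. H1 contributed 10 genes, H2A 15, H2B 19, H3 10 and H4 12. Of these, 54 lie on chromosome 6, 7 on chromosome 1 and 5 elsewhere: H1-10 and H1-8 on chromosome 3, H1-7 and H4C16 on chromosome 12 and H1-9P on chromosome 17. The last 5 fall under the symbol rule but are outside the clusters, and H1-9P and H2BC20P are pseudogenes.

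The tumors were xenografts of JEKO-1, a line of human mantle cell lymphoma cells, grown under the skin of female CB17-SCID mice that were 6 to 8 weeks old and lack functional B and T cells. There were 4 groups of 3 tumors: acadesine with rituximab (combination), acadesine alone, rituximab alone, and vehicle (control). Acadesine, a nucleoside analogue, was given at 400 mg/kg, daily in the labels and on fewer days of the week in the study's methods, and rituximab, an antibody against CD20 on B cells, at 10 mg/kg weekly. Tumors were harvested on day 18, and RNA came from tumors that the methods call representative. All 4 groups were the same single cell line in the same strain of host. In whole tumors, fewer cells of a type and less RNA per cell cannot be told apart.

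Nucleosomes wrap DNA around a core of H2A, H2B, H3 and H4, and the linker histone H1 binds where the DNA enters and leaves. The clustered genes are transcribed chiefly in S phase, when new DNA has to be packed, and most of their mRNAs end in a stem-loop in place of a poly(A) tail. Several of them, H1-2, H2BC12 and H2BC21 included, are also known to give polyadenylated transcripts, and the primer used to label the RNA is not given in the sources used here. The coding sequences within a type are close to identical, so a probe set can take signal from a neighbouring copy: 33 genes rested on 1 probe set, and for 27 of the 66 the probe set used carries the suffix s or x, which the maker gives to sets whose probes may match more than 1 transcript.

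The members' own promoters show how the family is organised, and 5 of them, those of genes that the results below turn on, are given here with the 250 bases before the transcript start, 5′ to 3′ on the strand of the gene, from RefSeq on GRCh38.p14. Capitals mark exact matches, on either strand, to 4 short motifs: the CCAAT box, the octamer ATTTGCAT, the H1 box AAACACA and the TATA motif spelled TATAAA. In the H2BC12 window, matches on the 2 strands overlap at 1 place. The windows are chr6:26056471-26056720 for H1-2, chr6:26234988-26235237 for H1-3 and chr6:27146859-27147108 for H2BC12, all on the minus strand, chr1:149886683-149886932 on the minus strand for H2BC21, and chr6:27838319-27838568 on the plus strand for H2BC15.
H1-2: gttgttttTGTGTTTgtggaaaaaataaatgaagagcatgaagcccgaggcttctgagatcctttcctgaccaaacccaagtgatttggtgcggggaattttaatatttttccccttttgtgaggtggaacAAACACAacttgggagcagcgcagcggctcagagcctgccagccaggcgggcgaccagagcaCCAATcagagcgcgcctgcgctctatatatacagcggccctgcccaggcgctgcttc
H1-3: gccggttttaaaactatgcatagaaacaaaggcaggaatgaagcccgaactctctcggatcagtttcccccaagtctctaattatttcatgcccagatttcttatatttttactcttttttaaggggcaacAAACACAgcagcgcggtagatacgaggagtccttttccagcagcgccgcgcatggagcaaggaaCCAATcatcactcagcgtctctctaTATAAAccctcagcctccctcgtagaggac
H2BC21: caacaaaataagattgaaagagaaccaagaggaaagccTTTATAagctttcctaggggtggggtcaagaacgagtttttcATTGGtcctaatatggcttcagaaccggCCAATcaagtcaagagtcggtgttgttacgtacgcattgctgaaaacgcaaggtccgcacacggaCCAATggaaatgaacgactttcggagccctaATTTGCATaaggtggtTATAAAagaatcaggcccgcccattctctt
H2BC12: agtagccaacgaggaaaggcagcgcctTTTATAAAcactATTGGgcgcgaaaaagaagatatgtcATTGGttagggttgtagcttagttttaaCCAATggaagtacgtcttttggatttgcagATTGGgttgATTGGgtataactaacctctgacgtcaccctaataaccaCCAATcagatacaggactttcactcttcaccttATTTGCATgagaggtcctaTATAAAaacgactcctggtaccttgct
H2BC15: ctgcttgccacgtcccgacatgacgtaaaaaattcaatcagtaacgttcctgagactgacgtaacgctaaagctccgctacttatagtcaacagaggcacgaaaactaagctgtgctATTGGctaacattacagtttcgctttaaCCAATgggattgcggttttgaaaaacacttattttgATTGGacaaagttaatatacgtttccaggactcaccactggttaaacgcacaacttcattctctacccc

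In H1-2 and H1-3 the H1 box begins 119 bases before the start, and a CCAAT box follows at 57 and 55 bases. In H2BC21 and H2BC12 the octamer begins 46 bases before the start, and a TATAAA follows at 30 and 27 bases. H2BC15 holds 3 CCAAT boxes, on both strands, and none of the other motifs in this window. Promoters were found for 59 of the 66 genes. The octamer was in 78.6% of H2A and 77.8% of H2B promoters, in 12.5% of H3 promoters (1 of 8) and in 0% of H1 and H4 promoters, against 1.66% of 27305 promoters of all genes. The H1 box was in 77.8% of H1 promoters and in 0% of the other types, against 4.95% of all promoters. CCAAT was in 100% of H2A, H2B and H3 promoters and in 30.0% of H4 promoters, against 33.0% of all, and TATAAA was in 62.7% of the members' promoters, against 11.1% of all. Adjacent H2A and H2B genes share a good part of these windows, so their matches are in part the same bases. The H3 match is that of H3C4, whose first listed start has the same window as H2AC7, so its motif matches are those of the H2A gene.

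The deposited values are log2 expression values from RMA, a method that corrects background, makes the arrays' distributions equal and summarises each probe set. Where a gene had several probe sets, the one with the highest mean stood for it, and levels of different genes are not set against each other, since probes differ in brightness. Array medians lay between 4.59 and 4.66. As RMA makes the distributions equal, they cannot show whether an array stood apart. All 8 B lineage genes measured, among them MS4A1 (CD20), CCND1 and SOX11, had a mean of at least 5. Of the 66 genes, 26 had a mean value of at least 5 and are called bright here, and 40 had a mean under 5, where little signal stands above background. The split uses the same 12 values as the comparisons and is a description only. H1-5, with a mean of 5.03, lay just inside it, through combination tumors with a mean of 5.44 beside control tumors with a mean of 4.97, and H2BC7, with a mean of 4.79, just outside.

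With the combination, 5 histone genes rose relative to control and 0 fell: the linker histone gene H1-2, the H2A gene H2AC20 and the H2B genes H2BC21, H2BC15 and H2BC12. These are 7.58% of the 66 genes, while 1.14% of all 18239 genes rose and 1.33% fell (limma, Benjamini-Hochberg adjusted p under 0.05 over all genes). Of the 66 genes, 53 had a higher mean in combination tumors than in control tumors, 80.3%, against 50.4% of all genes. The median difference of the 66 was 0.13 on the log2 scale, against 0.00 for all genes. Among the 26 bright members 25 were higher, with a median of 0.41 (24 of 25 and 0.38 without H1-5, a setting added after seeing the data), whereas among all 9481 bright genes 48.6% were higher, with a median of -0.01. The 40 dim members had a median of 0.06. The typical standard error of a member's difference was 0.15.

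**Figure D1:**
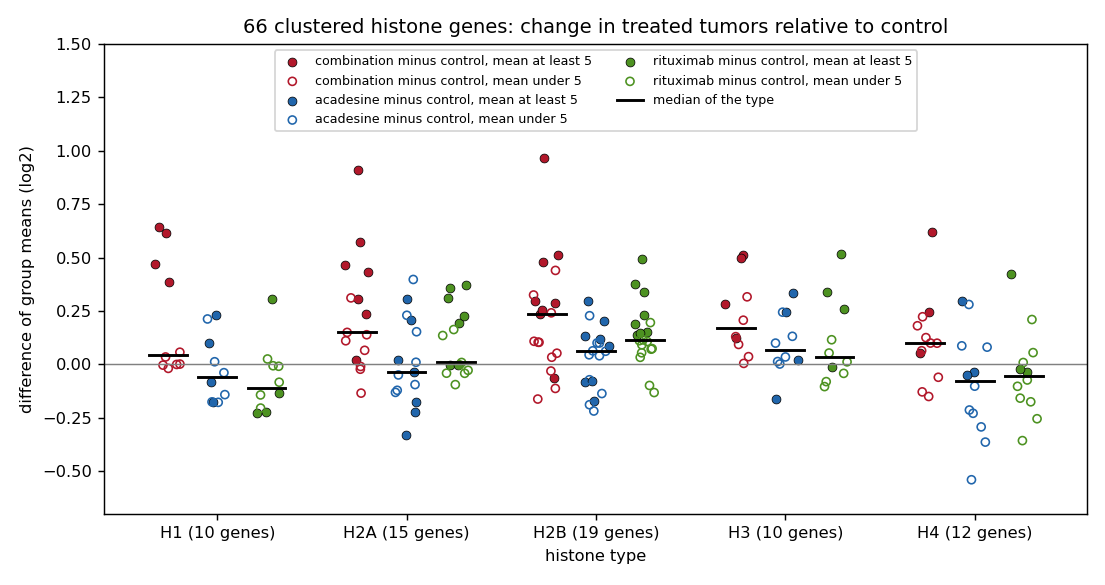
Difference of group means on the log2 scale (vertical axis) for each of the 66 histone genes by histone type (horizontal axis), with combination minus control in red, acadesine minus control in blue and rituximab minus control in green. Filled points are genes with a mean value of at least 5, open points the rest, and bars the medians of a type; 25 of the 26 filled red points lie above 0.

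H1-2, a widely expressed linker histone, had the smallest p of the family. Its values were 11.99, 12.17 and 11.94 in combination tumors, 11.66, 11.65 and 11.64 in acadesine tumors, 11.66, 11.64 and 11.87 in rituximab tumors, and 11.47, 11.28 and 11.50 in control tumors. It rose by 0.61 ± 0.08 (SE) on the log2 scale, 1.53-fold, with the combination over control (adjusted p = 0.000315). The 3 combination tumors lay above all others, the 3 control tumors below all others, and both single agents in between.

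H2AC20 and H2BC21 encode H2A and H2B and are neighbours on chromosome 1, read in opposite directions from starts 236 bases apart. H2AC20 was at 8.80, 8.78 and 8.03 in combination tumors and at 7.80, 7.16 and 7.91 in control tumors, a rise of 0.91 ± 0.20 (SE), 1.88-fold (adjusted p = 0.0183). Its values in combination tumors 1 and 2 were well above the rest, and combination tumor 3 was close to the highest control tumor and under acadesine tumor 1, at 8.26. H2BC21 was at 8.80, 8.65 and 8.52 in combination tumors and at 8.20, 8.22 and 8.01 in control tumors, a rise of 0.51 ± 0.13 (SE), 1.43-fold (adjusted p = 0.0386). All 3 combination tumors were above the 9 other tumors, the nearest of which was rituximab tumor 3 at 8.47. By its 2 other probe sets, both dim, H2BC21 differed by 0.07 and -0.08, and with the mean of its 3 probe sets the difference was 0.17 and the call was lost (adjusted p = 0.440). The other probe set of H2AC20 was dim and gave 0.25, and the mean of its 2 sets gave 0.58 without a call (adjusted p = 0.155).

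The other H2B genes that rose lie on chromosome 6. H2BC15 was at 7.49, 7.24 and 7.28 in combination tumors and at 6.52, 6.04 and 6.54 in control tumors, a rise of 0.97 ± 0.24 (SE), 1.95-fold (adjusted p = 0.0370). Rituximab tumors spread widely for this gene, at 7.14, 5.81 and 6.6, all under the combination tumors. H2BC12 was at 13.16, 13.32 and 13.07 in combination tumors and at 13.02, 12.84 and 12.92 in control tumors, a rise of 0.26 ± 0.07 (SE), 1.19-fold (adjusted p = 0.0431). Its groups did not overlap, although the lowest combination tumor and the highest control tumor were close. A second, dim probe set of H2BC12 gave 0.49, and the mean of both gave 0.37 without a call (adjusted p = 0.199). With means of probe sets, H2BC15, which has 1 probe set, was lost as well (adjusted p = 0.0778).

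**Figure D2:**
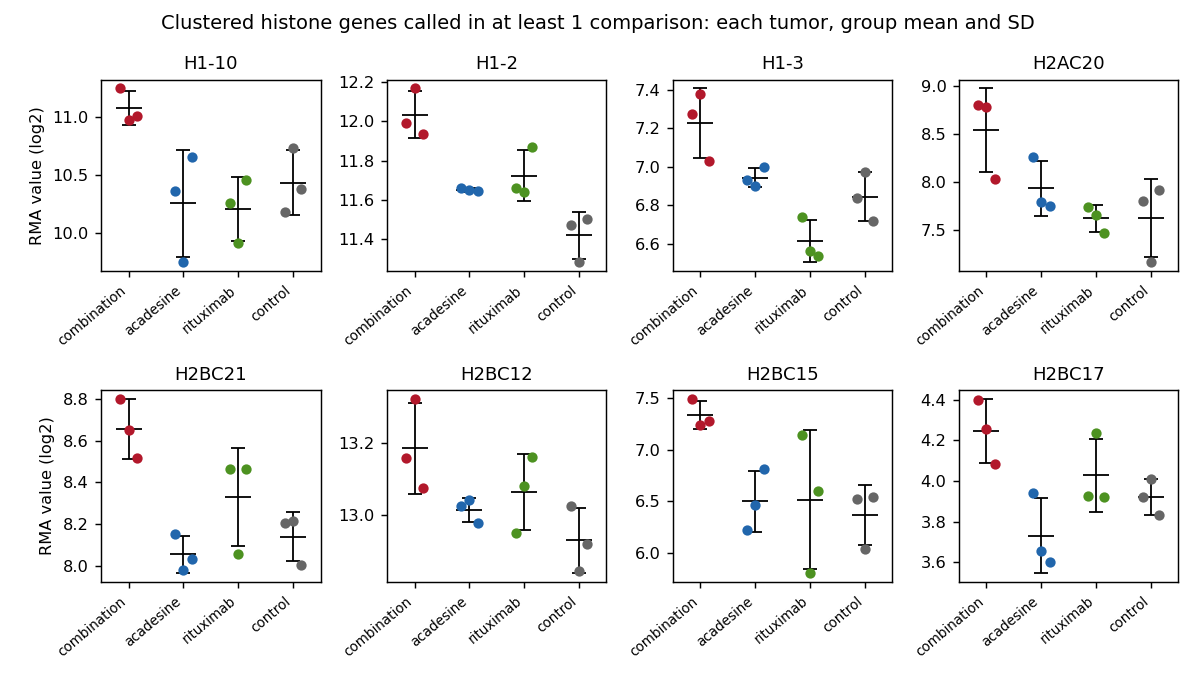
RMA values on the log2 scale (vertical axes, each with its own range and not starting at 0) of the 8 histone genes called in at least 1 comparison, with a point for each tumor and the mean and SD of each group of 3 tumors (horizontal axes). The 3 combination tumors of H1-2 lie above the 9 others, and the 3 control tumors below them.

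How far these calls rest on single tumors was seen by leaving out each of the 12 in turn. H1-2 passed every time, with an adjusted p of at most 0.00403. H2AC20 was lost without combination tumor 1 or 2 or control tumor 2 (adjusted p from 0.0685 to 0.126), and H2BC21 without combination tumor 1 or 2 or control tumor 1 or 3 (0.0815 to 0.189). H2BC15 was lost without any one of the combination or control tumors (0.0786 to 0.148). H2BC12 was lost without combination tumor 1 or 2, acadesine tumor 1 or 3, rituximab tumor 2 or control tumor 2 or 3 (0.0518 to 0.282). Without combination tumor 1 or combination tumor 2, 1 of the 5 calls remained, that of H1-2, and without control tumor 3 there were 2 calls.

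By type, the bright H1 genes had a median difference of 0.54 with the combination over 4 genes, or 0.61 over 3 without H1-5: H1-10 at 0.64, H1-2 at 0.61, H1-5 at 0.47 and H1-3 at 0.38. Only H1-2 passed the test against control, and H1-10, a linker histone made throughout the cell cycle, had an adjusted p of 0.0528. The 6 dim H1 genes, among them H1-6, H1-7 and H1-8, which are known from germ cells, had a median of 0.00 and lay between -0.02 and 0.06. H1-7 had the lowest difference of the type.

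All 7 bright H2A genes were higher with the combination, with a median of 0.43. H2AC15 differed by 0.57, H2AC7 by 0.46 and H2AC6 by 0.43, and of the 7 only H2AC20 passed the test. H2AC6 was at 9.0, 9.09 and 8.94 in combination tumors and at 8.72, 8.48 and 8.53 in control tumors (adjusted p = 0.0671). H2AC8 differed by 0.31 by the probe set used. Its second bright probe set gave -0.13, so the direction of H2AC8 depends on the probe set. H2AC13, a dim gene, had the lowest difference of the type at -0.13.

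Of the 8 bright H2B genes 7 were higher, with a median of 0.29, and 3 passed the test. H2BC11 differed by 0.48 and H2BC8 by 0.30. H2BC5 was the bright member that was lower, at -0.07, and its 2 other bright probe sets gave 0.06 and 0.22, so it too has no settled direction. Among the dim genes H2BC7 differed by 0.44, and H2BC10, at -0.16, was the lowest of the 66.

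All 10 H3 genes had higher means in combination tumors, by 0.00 for H3C3 up to 0.51 for H3C4, and none passed the test. H3C4 was at 8.27, 8.42 and 8.14 in combination tumors and at 7.86, 7.79 and 7.65 in control tumors, without overlap. H3C8 differed by 0.50 (adjusted p = 0.0731), and its 3 other probe sets gave 0.42, 0.38 and 0.19. H3C10 differed by 0.12 by one bright probe set and by -0.10 by another.

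Among the H4 genes 3 were bright, and none of the 12 passed the test. H4C8 differed most, at 7.15, 7.24 and 7.08 in combination tumors and 6.76, 6.24 and 6.62 in control tumors, a difference of 0.62 with no overlap. H4C12 differed by 0.24. H4C3 was at 13.84, 13.84 and 13.85 in combination tumors and at 13.92, 13.71 and 13.75 in control tumors, a difference of 0.05, with control tumor 1 above all 3 combination tumors. H4C3 is close to the top of the arrays' range of 3.09 to 14.3. H4C16, which lies outside the clusters, had the lowest difference of the type at -0.15.

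**Figure D3:**
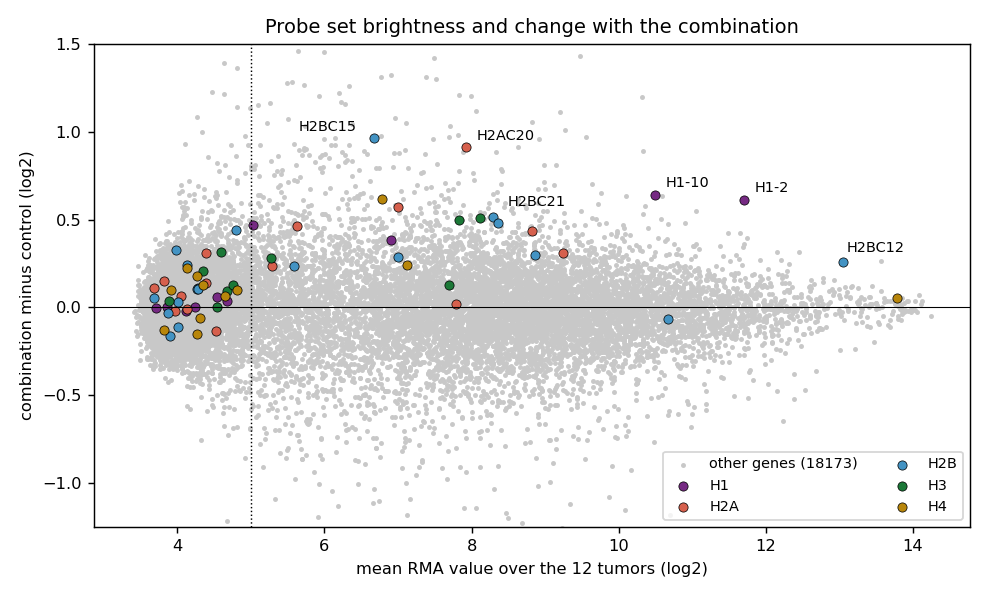
Combination minus control on the log2 scale (vertical axis) against the mean RMA value over the 12 tumors on the log2 scale (horizontal axis), with the 66 histone genes in colour by type over the 18173 other genes in grey. The dotted line marks a mean of 5 and 34 genes beyond the vertical range are not drawn; to its right 25 of 26 histone genes lie above 0.

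Leaving the test aside, the 3 combination tumors lay above all 3 control tumors for 21 of the 66 genes (31.8%), against 9.42% of all genes, and below them for 0 of the 66, against 9.08% of all genes. Of the 21 genes 17 were bright. For 7 genes, H1-2, H1-3, H1-5, H1-10, H2BC7, H2BC15 and H2BC21, the combination tumors lay above all 9 others, 10.6%, against 3.1% of all genes, and for 0 they lay below all 9 others, against 2.94%.

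**Figure D4:**
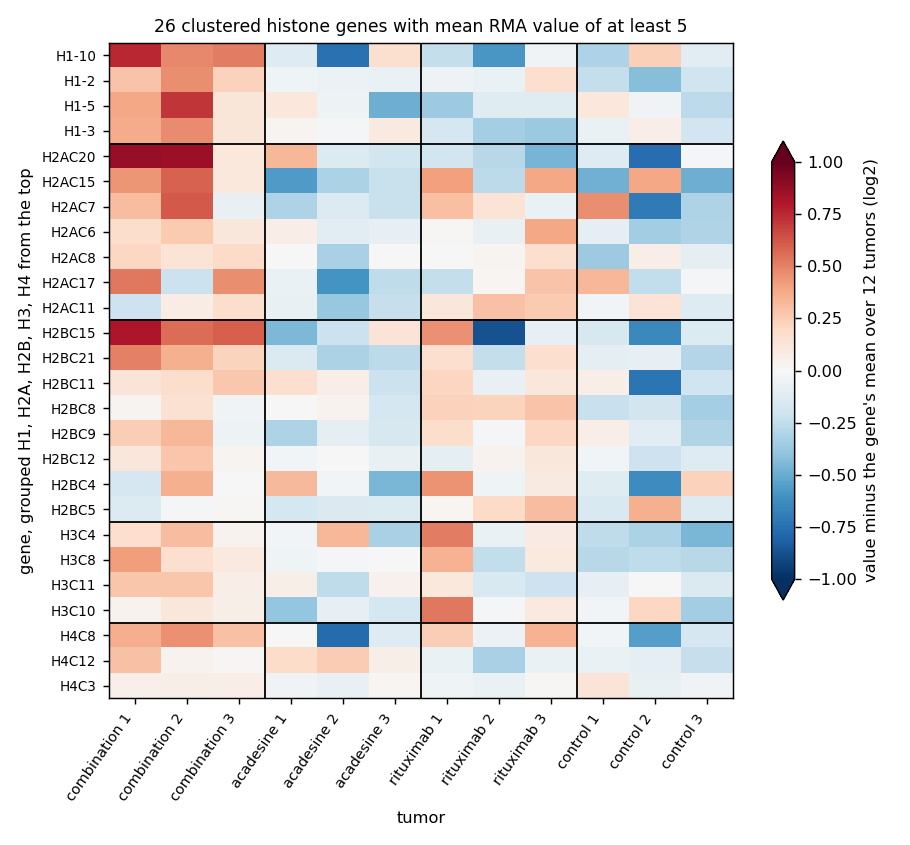
RMA value minus the mean over the 12 tumors, on the log2 scale, in colour (red above, blue below) for the 26 bright histone genes (rows, grouped by type and sorted by combination minus control) in each tumor (columns). The combination columns are red for most genes, and combination tumor 3 is paler than combination tumors 1 and 2.

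Averaged over the 26 bright genes, the level relative to each gene's mean was 0.28, 0.31 and 0.14 in combination tumors, -0.06, -0.16 and -0.13 in acadesine tumors, 0.11, -0.11 and 0.08 in rituximab tumors, and -0.08, -0.19 and -0.20 in control tumors. Combination tumors 1 and 2 were the highest of the 12, combination tumor 3 was close to rituximab tumor 1, and the acadesine and control tumors were all below 0. For H1 the combination tumors were at 0.45, 0.53 and 0.25, against -0.13, -0.04 and -0.19 in control tumors. For H3 rituximab tumor 1, at 0.37, was above all 3 combination tumors, at 0.22, 0.22 and 0.06.

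Skeletal muscle transcripts, which can come from host tissue around a xenograft, moved with some of these tumors. The mean level of 20 muscle genes relative to each gene's mean was -0.53, 1.73 and 0.71 in combination tumors, and between -0.46 and -0.26 in control tumors, and 3 of the 20 rose (MYL11, TNNI2 and LDB3). Combination tumor 1, the lowest of the 12 in muscle, had an averaged level of the bright histone genes of 0.28. With the 4 tumors highest in muscle left out (combination 2 and 3, acadesine 2 and rituximab 2), the combination group held 1 tumor, assumed in the fit to vary like the other groups, and H1-2 differed by 0.58 (adjusted p = 0.0475). Calls lost in that fit cannot be told apart from the loss of 2 of 3 combination tumors. The part of muscle in the histone values was not tested beyond this. The collagen gene COL3A1 rose, as 1 of 6 fibroblast genes. None of 8 B lineage, 6 macrophage, 4 endothelial or 2 erythroid genes passed the test of the combination against control. The arrays carry probes for human genes and the host was a mouse, so a missing call says little about host cells. Against acadesine, LDB3 and the B lineage gene SOX11 rose with the combination, by 1.45 and 1.14 on the log2 scale. Against rituximab, MYL11, TNNI2, LDB3, SOX11, COL3A1 and COL1A1 rose, by 0.70 for COL3A1 up to 2.5 for MYL11. The part of these cells in the histone values of those comparisons was not tested.

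Neither single agent changed a histone gene past the threshold. With acadesine 0 genes rose and 0 fell among the 66, as among all genes (0% and 0% of 18239). At an unadjusted p under 0.05 there were 3 of the 66, H1-2, H2AC25 and H4C16, against 7.8% of all genes. H1-2 was higher by 0.23 ± 0.08 (SE, adjusted p = 0.564), H2AC25 by 0.40 ± 0.17 (0.613), and H4C16 was lower, at -0.54 ± 0.18 (0.564). The median of the 66 was 0.01, and that of the 26 bright genes 0.02, with 14 of 26 higher.

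The acadesine tumors of H1-2 lay close together and above the 3 control tumors. H4C16 was at 4.14, 4.0 and 3.74 in acadesine tumors and at 4.27, 4.90 and 4.32 in control tumors, without overlap but near background. In all, the acadesine tumors lay above the control tumors for 6 of the 66 genes (9.1%), against 6.91% of all genes, and below them for 2, against 5.95%.

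With rituximab 0 genes rose and 0 fell as well, as among all genes (0% and 0% of 18239). At an unadjusted p under 0.05 there were 7 of the 66, all higher and all bright, against 4.21% of all genes: H1-2, H2AC6, H2BC8, H2BC11, H3C4, H3C8 and H4C8. H2BC8 was at 9.09, 9.09 and 9.15 in rituximab tumors, 8.86, 8.90 and 8.69 in acadesine tumors and 8.64, 8.68 and 8.52 in control tumors, a difference from control of 0.50 ± 0.10 (SE, adjusted p = 0.522). H3C4 was at 8.62, 8.04 and 8.19 in rituximab tumors, a difference of 0.52 ± 0.16 (SE, adjusted p = 1.00). H1-2 differed by 0.30 ± 0.08 (SE, adjusted p = 1.00). For H2BC8 the rituximab tumors were also above all 3 combination tumors, which were at 8.89, 9.01 and 8.83.

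All 8 bright H2B genes were higher with rituximab than in control tumors, with a median of 0.21, while 3 of the 4 bright H1 genes were lower, with a median of -0.18. The 26 bright genes had a median of 0.21 and the 40 dim ones of -0.01. Rituximab tumors lay above all control tumors for 5 of the 66 genes (7.6%), against 4.38% of all genes, and below them for 1, the pseudogene H1-9P, against 4.56%. Rituximab tumor 2 was the lowest of its group for 16 of the 26 bright genes, and the 3 comparisons with control share the same control tumors.

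Against acadesine alone, 4 histone genes rose with the combination and 0 fell, while 1.31% of all genes rose and 1.13% fell. H1-10 was at 11.24, 10.97 and 11.01 in combination tumors and at 10.36, 9.75 and 10.65 in acadesine tumors, a rise of 0.82 ± 0.17 (SE), 1.76-fold (adjusted p = 0.0133). H2BC21 was at 8.15, 7.98 and 8.04 in acadesine tumors and rose by 0.60 ± 0.13 (SE), 1.51-fold (adjusted p = 0.0166), and H1-2 rose by 0.38 ± 0.08 (SE), 1.3-fold (adjusted p = 0.0121). H2BC17, a dim gene that shares its promoter region with H2AC17, was at 4.4, 4.26 and 4.08 in combination tumors and at 3.94, 3.65 and 3.60 in acadesine tumors (log2 difference 0.51, adjusted p = 0.0380). The groups did not overlap for any of the 4. The other probe set of H1-10 was dim, and by it the combination differed from control by -0.05, against 0.64 for the one used. By this dim set H1-10 was at 4.054, 3.966 and 4.565 in combination tumors and at 4.334, 4.375 and 4.57 in acadesine tumors, so it was not higher there. With the mean of a gene's probe sets, H1-10 differed from acadesine by 0.29 and H2BC21 by 0.20, and both calls were lost.

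Here too single tumors mattered. H1-10 was lost without combination tumor 1 or acadesine tumor 2 (adjusted p from 0.0691 to 0.0779), H1-2 without combination tumor 2 or acadesine tumor 1 (0.0517 to 0.0962), H2BC21 without combination tumor 1 or 2 or acadesine tumor 2 (0.0676 to 0.0948), and H2BC17 without combination tumor 1 or 2 or acadesine tumor 2 or 3 (0.111 to 0.162). Without combination tumor 1 or 2 or without acadesine tumor 2 a single call remained.

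Against rituximab alone, 4 histone genes rose with the combination and 0 fell, while 1.51% of all genes rose and 1.31% fell. H1 made up 3 of the 4. H1-10 was at 10.26, 9.91 and 10.46 in rituximab tumors, a rise of 0.87 ± 0.17 (SE), 1.82-fold (adjusted p = 0.00855). H1-3 was at 7.27, 7.38 and 7.03 in combination tumors and at 6.74, 6.56 and 6.54 in rituximab tumors, a rise of 0.61 ± 0.15 (SE), 1.53-fold (adjusted p = 0.0277). H2AC20 was at 7.74, 7.65 and 7.46 in rituximab tumors, a rise of 0.92 ± 0.20 (SE), 1.89-fold (adjusted p = 0.0176). H1-2 rose by 0.31 ± 0.08 (SE), 1.24-fold (adjusted p = 0.0367), and its rituximab tumor 3, at 11.87, came close to combination tumor 3, at 11.94. With the mean of a gene's probe sets, H1-10 differed from rituximab by 0.46 and H2AC20 by 0.64, and both calls were lost. The call of H1-2, which has 1 probe set, was lost as well.

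Without rituximab tumor 2 none of these 4 calls remained: H1-10 had an adjusted p of 0.0909. H1-2 was lost without combination tumor 1 or 2 or rituximab tumor 1 or 2 (0.0815 to 0.233), H1-3 without combination tumor 1 or 2 or rituximab tumor 2 or 3 (0.1 to 0.153) and H2AC20 without the same 4 tumors (0.0767 to 0.117). Without combination tumor 1 or 2 there was 1 call, and without rituximab tumor 3 there were 2.

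The interaction, the combination's difference from control less the sum of both single-agent differences, passed the test for 0 of the 66 genes, while 0.203% of all genes were above the sum and 0.0768% below it. At an unadjusted p under 0.05 there were 10 of the 66, 9 of them above the sum, against 10.8% of all genes. H1-10 had the smallest p, with an interaction of 1.04 ± 0.24 (SE, adjusted p = 0.0755): it was lower with acadesine, at -0.18, and with rituximab, at -0.22, and higher with the combination, at 0.64, each against control. It passed without acadesine tumor 3 (adjusted p = 0.00949), while leaving out other single tumors gave an adjusted p of up to 0.227. Over all alternative settings the interaction of H1-10 lay between 0.46 and 1.24. By its dim probe set the differences from control were 0.178 with acadesine, -0.115 with rituximab and -0.053 with the combination. The dim genes H4C9, at 0.79, and H4C6, at 0.63, had the next smallest p, with adjusted p of 0.209 and 0.249. For H1-2 the interaction was 0.08, so the combination was close to the sum of the single agents, whereas H2BC8 was below it, at -0.40 (adjusted p = 0.296).

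Most clustered H2A and H2B genes stand in divergent pairs whose starts lie close together, and 11 such pairs had both genes measured and both starts in the table, 194 to 248 bases apart. With the combination both genes were higher than in control tumors for 9 of the 11, and for all 5 pairs in which both genes were bright. As 25 of the 26 bright members and 53 of all 66 were higher, these counts say little about the pairs themselves. H2AC20 and H2BC21 differed by 0.91 and 0.51, H2AC15 and H2BC15 by 0.57 and 0.97, H2AC6 and H2BC4 by 0.43 and 0.24, and H2AC8 and H2BC8 by 0.31 and 0.30. H2AC11 and H2BC11, 248 bases apart, differed by 0.02 and 0.48, so the partners were not always alike. With acadesine more of the bright pairs went apart. H2AC20 and H2BC21 were at 0.31 and -0.08, H2AC11 and H2BC11 at -0.22 and 0.30, and H2AC15 and H2BC15 at -0.18 and 0.13. Both genes were higher for H2AC6 and H2BC4, at 0.21 and 0.12, and for H2AC8 and H2BC8, at 0.02 and 0.20.

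**Figure D5:**
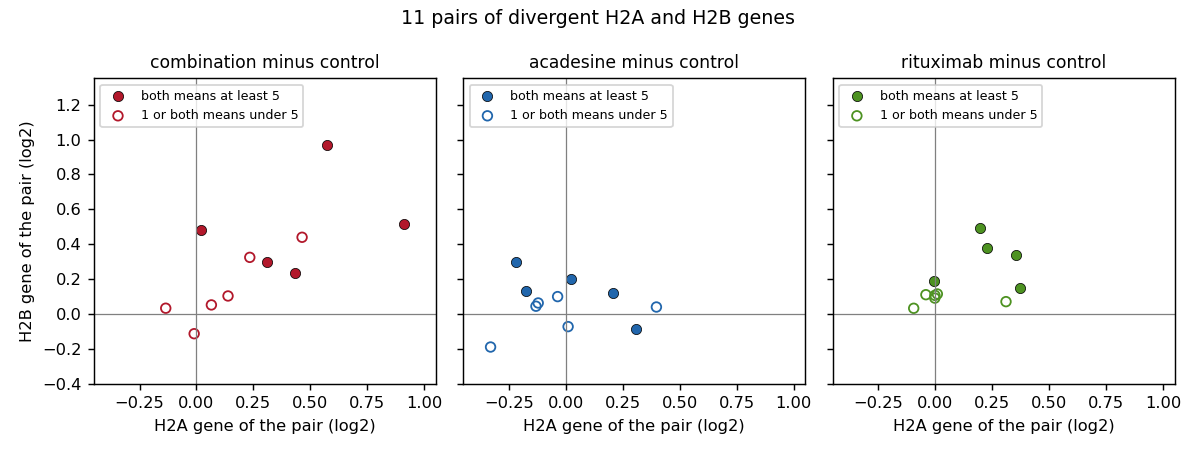
Difference from control on the log2 scale of the H2B gene (vertical axes) and the H2A gene (horizontal axes) of 11 divergent pairs, for combination, acadesine and rituximab (panels from left to right), with filled points where both genes are bright. In the combination panel 9 of the 11 pairs lie above 0 on both axes.

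Genes that act around the clustered histone genes were counted in the same way. Of 12 genes listed as replication-independent histone genes, 1 rose with the combination over control and 0 fell, and their median was 0.09. That gene was H2AX, the H2A variant phosphorylated at DNA breaks, at 12.13, 12.15 and 12.09 in combination tumors and at 11.82, 11.86 and 11.88 in control tumors (log2 difference 0.27, adjusted p = 0.0198). Whether the listed genes, H2AX included, vary with the cell cycle was not tested. Of 18 genes of histone mRNA 3′ end processing and decay 0 passed the test, with 15 lower and a median of -0.04. SLBP, which binds the stem-loop, differed by -0.04, and NPAT, which activates histone transcription at the start of S phase, by -0.02. Of 15 polyadenylation genes 0 passed, with a median of -0.02.

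Of 20 histone chaperone genes 1 fell and 0 rose: RBBP7, which carries H3 and H4, was at 10.20, 10.20 and 10.23 in combination tumors and at 10.81, 10.46 and 10.45 in control tumors (log2 difference -0.36, adjusted p = 0.0428). Of 22 S phase genes 19 were higher with the combination, with a median of 0.11, and 3 rose over control. These were CDC25A, a phosphatase that activates the kinases of S phase entry, with a log2 difference of 0.79 (adjusted p = 0.00820), UHRF1 and CDT1. UHRF1, which helps to copy DNA methylation after replication, differed by 0.48 (0.0109). CDT1, which loads the replicative helicase, differed by 0.47 (0.0390). The mean level of the S phase list was 0.18, 0.12 and 0.08 in combination tumors and 0.09, -0.16 and -0.02 in control tumors, so the groups overlapped. With rituximab over control, 4 of the 22 S phase genes were higher and 18 lower, with a median of -0.05. The bright histone genes had a median of 0.21 with rituximab, with 18 of 26 higher, and all 66 a median of 0.03, with 37 higher. Bright H1 genes had a median of -0.18 and bright H4 genes of -0.02. No histone or S phase gene passed the test in that comparison. With acadesine over control, 12 of the 22 were higher and 10 lower, with a median of 0.05. The part of S phase genes in the histone values was not tested.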

How the data were processed

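RNA of 12 tumors was hybridised to Affymetrix HT HG-U219 arrays, 1 tumor each. The authors deposited log2 values made with RMA from the scanned images; no scan was used here. Of 49386 probe sets, 93 controls were left out, 45253 named 1 gene, 1327 several and 2713 none. Old symbols were updated through Entrez identifiers to those of RefSeq (GRCh38.p14). H1-10-AS1, an antisense RNA, was left out of the family although its symbol fits. For 18239 genes, limma 3.58.1 (R 4.3.3) fitted 1 mean per group, letting the variance follow intensity, with Benjamini-Hochberg adjustment over all genes. The study's Rank Products test was not run. The labels call the tumors of a group biological replicates, and having 3 per group limits the precision. On simulated data with 100 genes changed by 1 (log2), the combination against control recovered 88, and 40 of 100 changed by 0.5. It also called 11 of 18039 unchanged genes. Promoters were the first start listed per gene. The genes named were those called, those with the smallest p where none was called, the extremes and the highest mean of each type, those whose probe sets differed in direction, and called members of the lists. The members, lists and rule were chosen with earlier results of these data known. Alternatives covered the probe set rule, dim genes, variance models, array weights, normalization, thresholds, the replicate block, muscle level and leaving out tumors.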

Additional observations from a re-analysis of the deposited data

How the results depend on the processing

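The 0 calls of either single agent against control held under every alternative, and the H1-2 call of combination against control under all 24 (adjusted p from 0.000167 to 0.0475). None of the called genes, and none of those named for the smallest p, changed direction under these alternatives in the comparison they were named for. The counts of the combination depended on the setting, against 5 calls over control, 4 over acadesine and 4 over rituximab in the report. The mean of a gene's probe sets gave 1 over control and 1 over rituximab, and the probe set with the largest variance gave 3 over control. Without an intensity trend there was 1 call in each of the 3 comparisons. With the muscle level as a covariate there were 3, 2 and 1, and 1 for the interaction (H1-10, adjusted p = 0.0408), and without the 4 tumors highest in muscle 1, 0 and 0, the combination group then holding 1 tumor assumed to vary like the other groups. At an adjusted p under 0.2 with a fold change over 1.4, the thresholds of the study's methods, there were 8, 9 and 5, and 1 for the interaction. The share of all genes passing these looser thresholds was not counted, so these counts have no background to be read against. Leaving out 1 tumor gave 1 to 7 over control, 1 to 6 over acadesine, 0 to 4 over rituximab and 0 to 1 for the interaction. Over the other alternatives the median difference of the 66 genes with the combination over control lay between 0.11 and 0.25, was highest without the 4 tumors highest in muscle, and was 0.41 over bright genes alone. With the tumor number as a replicate block there were 5, 6 and 5 calls: over control H2BC12 was lost (adjusted p = 0.0543) and H1-10 gained (0.0453), over acadesine H2BC15 and H4C8 were gained, and over rituximab H2BC15. There were 481 genes in all over control with the block, against 450 without it. Same-numbered tumors correlated between -0.12 and 0.19, over 0.1 in 7 of 18 pairs. The numbers were not taken as pairs in the main fit because the study's methods name no block. As a hint from the data of some shared structure, 9 of 12 tumors correlated best with their own number. Near background, where 40 of the 66 genes lie, differences are compressed and a missing call says little.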

Other observations

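Probe sets that name several histone genes were outside the rule for the family, and 8 of them were measured. The 2 that name both H2AC18 and H2AC19, twin H2A genes on chromosome 1, were at 12.23, 12.18 and 12.14 in combination tumors and at 11.68, 11.36 and 11.77 in control tumors by one, and at 11.86, 11.66 and 11.83 in combination tumors and 11.32, 10.76 and 11.29 in control tumors by the other. The combination differed from control by 0.58 and 0.66 on the log2 scale, with no overlap in either, and acadesine and rituximab differed by 0.26 and 0.22 by the first. The probe set for H4C11 and H4C12 differed by 0.42 with the combination, at 8.52, 8.48 and 8.58 against 8.02, 8.15 and 8.14 in control tumors. The bright set for H4C14 and H4C15 differed by 0.21 and overlapped, and the other 4 sets, all dim, lay between -0.23 and 0.20. These sets were not tested, since each joins signal from several genes.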
